A study of Mus musculus with 22 samples.

Results

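The genes described are the low-density lipoprotein (LDL) receptor relatives Lrp1, Lrp1b, Lrp4, Lrp5, Lrp6, Lrp8 and Vldlr, their chaperone Lrpap1 and their ligand Apoe. They were taken by gene symbol, and all 9 were found among the 17306 genes of the expression table. All 9 also passed the filter on low values, which left 16765 genes.

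The values come from RNA sequencing of lumbar (L4-L6) spinal cord of 22 wild-type C57BL6J mice aged 12 to 14 weeks. Every mouse had received 1 mg of monoiodoacetate (MIA), which damages joint cartilage, in a knee joint, and no group without MIA was analysed here. SAFit2, an inhibitor of the stress-response co-chaperone FKBP51, was given at 100 mg/kg in a slow-release vesicular phospholipid gel (VPG), and Vehicle mice had the gel alone. Gel was injected on days -3 and 4 in Early SAFit2 (n = 5) and Early Vehicle mice (n = 6), and on days 20 and 27 in Late SAFit2 (n = 5) and Late Vehicle mice (n = 6). Tissue was collected on day 30 after MIA, and the labels do not say which side or part of the cord it was. The paper names the sequenced tissue as dorsal horn quadrants on the side of the injury. The labels name the early and the late mice as separate batches, so timing and batch cannot be told apart. The titles of the 5 Early SAFit2 samples name SAFit1 and their treatment labels SAFit2, and the labels of all 11 early samples give day 3 where the series gives day -3. The question was whether SAFit2 altered expression in the spinal cord, and whether that depended on when it was given.

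LDL receptor relatives are membrane proteins that bind ligands through clusters of cysteine-rich repeats and carry many of them into the cell. In the nervous system they take up lipoproteins loaded with cholesterol by astrocytes, clear proteases and their inhibitors, and act as signalling receptors for reelin, agrin and Wnt proteins. Lrpap1 holds newly made receptors free of ligand on their way to the cell surface.

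Expression is given as log2 CPM, reads scaled to library size, and 11352989 to 24433349 reads per library were assigned to genes. Behind the values of single mice lay 1251 to 9921 reads for Lrp1 and 10603 to 51841 for Apoe, but 34 to 338 for Lrp5, which is therefore the least precise of the 9. In whole tissue, fewer cells of a type and less RNA per cell cannot be told apart.

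Levels of different genes were compared after division by transcript length, as log2 CPM per kilobase of the longest transcript, averaged over the 22 mice. Apoe, the main lipid carrier secreted by astrocytes, was at 10.04 ± 0.39 (SD, n = 22), above 99.9% of the 16213 genes with a length. Lrpap1 followed at 5.83 ± 0.16 and Lrp1, a large endocytic receptor, at 4.09 ± 0.51 log2 CPM per kilobase. Vldlr (2.85 ± 0.23), Lrp4 (2.48 ± 0.27) and Lrp8 (2.43 ± 0.35) lay close to the median gene at 2.30, and Lrp6 (1.88 ± 0.26) below it. Lrp1b at 0.45 ± 0.29 and Lrp5 at -0.05 ± 0.52 log2 CPM per kilobase were lowest. With the mean transcript length in place of the longest, levels ran from 0.80 for Lrp5 to 10.73 for Apoe, with Lrp1 at 6.56 and Lrp1b at 2.45. The median of 2.30 refers to the longest transcript. The order of neighbours differed between mice for Vldlr and Lrp4 (in order in 17 of 22 mice), Lrp4 and Lrp8 (11 of 22), Lrp8 and Lrp6 (21 of 22), and Lrp1b and Lrp5 (17 of 22). The difference between neighbours was within its SD over mice for Vldlr and Lrp4, Lrp4 and Lrp8, and Lrp1b and Lrp5.

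**Figure D1:**
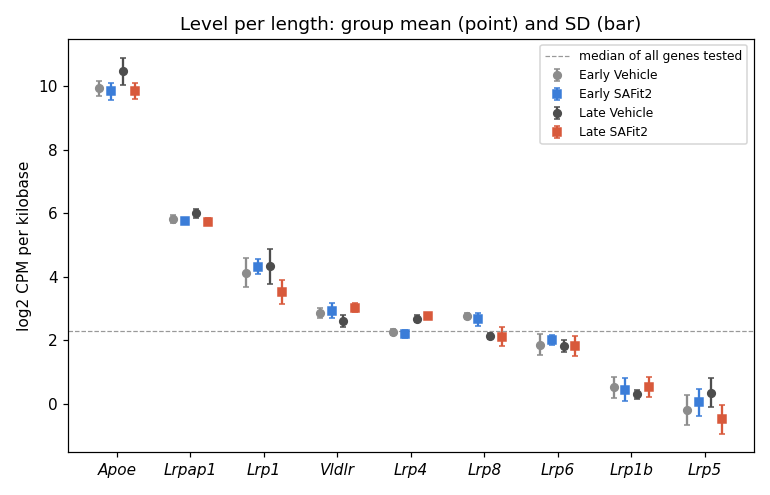
Level per transcript length (log2 CPM per kilobase) of the 9 genes in each of the 4 groups, with points for group means, bars for SD (n = 5 or 6 mice) and a dashed line for the median of all genes. Apoe stands far above the others, and Lrp1b and Lrp5 lie lowest.

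Libraries differed in how expression ran with the GC content of transcripts. Within each library, expression relative to the mean of all libraries was related to the GC content of the transcripts, and the slope of that relation is given as log2 units per 10% GC. The slope was negative in all 5 Late SAFit2 mice (mean -0.30 ± 0.16, SD) and averaged 0.17 ± 0.33 in the 6 Late Vehicle mice, of which replicates 2 and 6 were negative, at -0.16 and -0.32. Mitochondrially encoded genes took 13.8 ± 0.86% of reads in Late SAFit2 and 9.23 ± 2.55% in Late Vehicle mice, and the short RNA Bc1 took 7.73 ± 5.30% and 2.92 ± 2.39%. Across all genes tested, the median late log2 fold change was 0.30 for transcripts of 40 to 45% GC, 0.08 for 45 to 50%, -0.18 for 50 to 55% and -0.44 for 55 to 60%. GC content was 57.9% for Lrp1, 59.5% for Apoe, 54.7% for Lrp5 and Lrp4, 52.8% for Lrpap1, 47.4% for Lrp8, 46.0% for Lrp6, 43.8% for Vldlr and 43.5% for Lrp1b.

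In the late comparison (Late SAFit2 minus Late Vehicle), Lrp1, Lrp5 and Apoe were lower and Vldlr was higher with SAFit2. To pass, a gene needed a 1.2-fold change at an adjusted p under 0.05, and these 4 of 9 genes did so, beside 12.1% of all genes tested (limma, Benjamini-Hochberg). In the higher direction it was 1 of the 9, beside 5.33% of all genes, and in the lower direction 3 of the 9, beside 6.72%. For none of the 9 were the groups free of overlap, as they were for 1.71% of all genes. The median log2 fold change of the 9 was -0.03 and that of all genes -0.05. The split of all genes passing the test, 894 higher and 1127 lower, was 1139 and 924 with each library centred on its median gene, and 721 and 1353 with library sizes that left out Bc1 and mitochondrial genes.

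Lrp1 takes up Apoe particles, proteases bound to their inhibitors and many other ligands, and is made by neurons, astrocytes and microglia. It was at 7.95, 7.42, 7.64, 7.01 and 7.14 log2 CPM in the 5 Late SAFit2 mice, and the 6 Late Vehicle mice ranged from 7.33 to 8.73 with a median of 8.38. All 5 SAFit2 mice were below the Vehicle median and 2 of them below every Vehicle mouse, while Late Vehicle replicate 6 (7.33) lay within the SAFit2 range and replicate 2 (7.82) just under the highest SAFit2 mouse. Lrp1 fell by 0.79 ± 0.23 (SE) on the log2 scale (limma with Benjamini-Hochberg, adjusted p = 0.0359), and a two-sided exact permutation test gave p = 0.0303. Once the trend of each library with GC content and transcript length had been taken out, the log2 fold change was -0.30 (limma with Benjamini-Hochberg, adjusted p = 0.183; range over other settings, single libraries aside, 0.000294 to 1.00). With the GC slope as a covariate it was 0.02. That slope itself differed between the late groups, so this fit cannot tell an effect of SAFit2 from one of the slope. Neuronal markers (6 of 6 in the table, Snap25 the most abundant, none at 0 reads) summed to 5889 ± 301 CPM in Late SAFit2 and 4883 ± 562 CPM in Late Vehicle mice. Snap25 alone averaged 3001 CPM, 4 of the 6 were higher and 2 lower, with 1 past the threshold in limma, and their part in the level of Lrp1 was not tested.

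Lrp1b, a close relative of Lrp1 with slower uptake of ligands, was at 4.35, 4.49, 4.40, 5.13 and 4.43 log2 CPM in Late SAFit2 and at 4.15 to 4.52 (median 4.32) in Late Vehicle mice. Replicate 4 of Late SAFit2 was above every Vehicle mouse and the other 4 overlapped with them. The log2 fold change of 0.23 ± 0.17 did not pass (limma with Benjamini-Hochberg, adjusted p = 0.353).

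Lrp5 and Lrp6 are the co-receptors that pair with Frizzled proteins to receive Wnt signals. Lrp5 was at 2.63, 3.19, 2.66, 2.91 and 1.97 log2 CPM in Late SAFit2 mice and at 2.72 to 4.02 (median 3.52) in Late Vehicle mice. All 5 SAFit2 mice lay below the Vehicle median and 3 below the lowest Vehicle mouse. Lrp5 fell by 0.83 ± 0.26 on the log2 scale (limma with Benjamini-Hochberg, adjusted p = 0.0427; exact permutation p = 0.0173). With limma voom on reads its adjusted p was 0.0604, and after the GC and length correction its log2 fold change was -0.48 (Benjamini-Hochberg adjusted p = 0.247). Lrp6 was at 4.80, 5.11, 5.23, 4.66 and 5.44 log2 CPM in Late SAFit2 and at 4.73 to 5.25 (median 5.13) in Late Vehicle mice. The groups overlapped nearly throughout, and the log2 fold change was -0.02 ± 0.15 (limma with Benjamini-Hochberg, adjusted p = 0.938).

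Vldlr and Lrp8 are the receptors of reelin, a secreted protein that guides neuronal positioning and acts at synapses, and both also bind Apoe. Vldlr was at 5.84, 6.01, 5.97, 6.07 and 6.22 log2 CPM in Late SAFit2 mice and at 5.40 to 5.93 (median 5.57) in Late Vehicle mice. All 5 SAFit2 mice were above the Vehicle median and 4 above every Vehicle mouse. It rose by 0.41 ± 0.12 on the log2 scale (limma with Benjamini-Hochberg, adjusted p = 0.0349; exact permutation p = 0.00866). After the GC and length correction the log2 fold change was 0.24 (limma with Benjamini-Hochberg, adjusted p = 0.230). Lrp8 was at 4.67, 4.72, 4.54, 5.0 and 5.30 log2 CPM in Late SAFit2 and at 4.73 to 5.04 (median 4.88) in Late Vehicle mice. SAFit2 mice lay on both sides of the Vehicle range, 3 below it and 1 above, with a log2 fold change of -0.03 ± 0.12 (limma with Benjamini-Hochberg, adjusted p = 0.896).

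Lrp4, which binds agrin at the neuromuscular junction and also holds back Wnt signals, was at 5.86, 5.71, 5.75, 5.80 and 5.72 log2 CPM in Late SAFit2 mice and at 5.56 to 5.82 (median 5.66) in Late Vehicle mice. All 5 SAFit2 mice were above the Vehicle median, but 4 of them were within the Vehicle range. The log2 fold change was 0.10 ± 0.09 (limma with Benjamini-Hochberg, adjusted p = 0.459). After the GC and length correction Lrp4 was at 5.92 to 6.17 in Late SAFit2 and at 5.34 to 5.91 in Late Vehicle mice. The share of all genes whose groups do not overlap on this corrected scale was not counted, so little can be read from it. With the correction the log2 fold change of Lrp4 was 0.44, which did not pass (limma with Benjamini-Hochberg, adjusted p = 0.115). Skeletal muscle markers (5 of 5 in the table, Tnnt3 the most abundant) summed to 196 and 143 CPM in Late SAFit2 replicates 3 and 5, 2.30 to 5.62 CPM in the other 3, and 1.68 to 4.24 CPM in Late Vehicle mice. Of these markers 4 were at 0 reads in at least 1 library, and 5 of 5 were higher in the late comparison (median log2 fold change 2.33), with 1 past the threshold in limma. Their part in the level of Lrp4 was not tested.

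Apoe was at 10.76, 10.32, 10.28, 10.05 and 10.34 log2 CPM in Late SAFit2 mice and at 10.39 to 11.37 (median 11.11) in Late Vehicle mice. In Late SAFit2, 4 mice were below every Vehicle mouse, and replicate 1 lay above the lowest of them. Apoe fell by 0.61 ± 0.18 on the log2 scale (limma with Benjamini-Hochberg, adjusted p = 0.0369; exact permutation p = 0.0260). After the GC and length correction its log2 fold change was -0.13 (limma with Benjamini-Hochberg, adjusted p = 0.498), and with the GC slope as a covariate 0.00. Astrocyte markers (8 of 8 in the table, Slc1a2 the most abundant, none at 0 reads) summed to 7574 ± 588 CPM in Late SAFit2 and 7326 ± 208 CPM in Late Vehicle mice, and 0 of the 8 passed in the late comparison by limma.

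Lrpap1 was at 7.48, 7.25, 7.35, 7.21 and 7.24 log2 CPM in Late SAFit2 mice and at 7.30 to 7.73 (median 7.59) in Late Vehicle mice. All 5 SAFit2 mice were below the Vehicle median and 3 below every Vehicle mouse. The log2 fold change of -0.26 ± 0.09, a 1.198-fold change, just missed both parts of the threshold (limma with Benjamini-Hochberg, adjusted p = 0.0548; exact permutation p = 0.0173), and it was -0.03 after the GC and length correction.

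**Figure D2:**
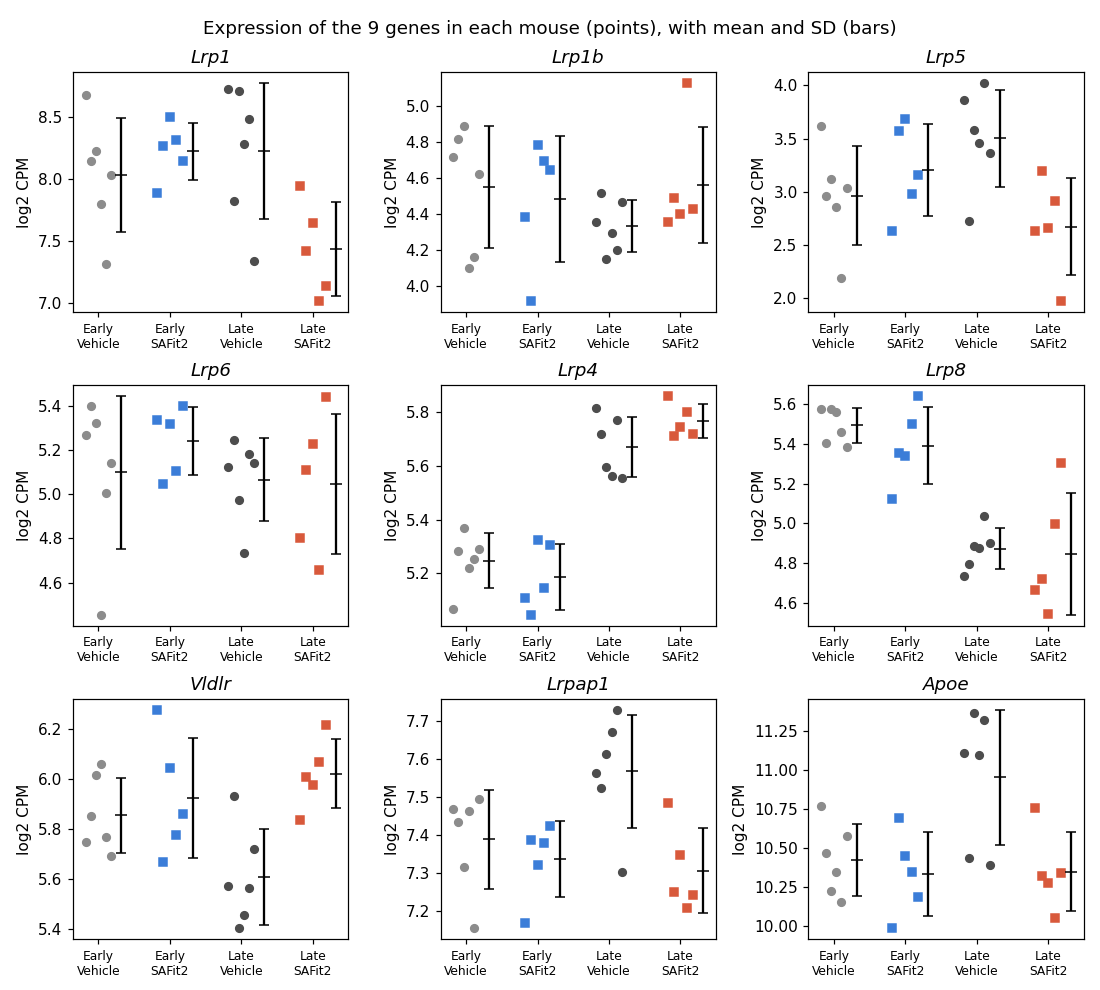
Expression (log2 CPM) of the 9 genes in each mouse of the 4 groups, with points for mice and bars for mean and SD. In Late SAFit2 mice Lrp1, Lrp5 and Apoe lie low and Vldlr high, and Lrp4 separates early from late mice.

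The calls of the late comparison rested on single mice and on the fit, among all genes as among the 9. None of the 9 genes passed in limma without replicate 2, 4 or 5 of Late SAFit2 or without replicate 1, 3, 4 or 5 of Late Vehicle, and 2 passed without replicate 3 of Late SAFit2. In the former fits 1 to 8 of all genes passed, and 1375 in the latter. Where Lrp1 missed the threshold with 1 mouse left out, its adjusted p was 0.0630 to 0.106 (limma with Benjamini-Hochberg). Fits with no variance trend, or on the late mice alone, also passed none of the 9 (0.0664 and 0.0687 for Lrp1), beside 62 and 0 of all genes. Lrp5 also missed the threshold without replicate 4 of Early SAFit2 (limma with Benjamini-Hochberg, adjusted p = 0.0513) and without replicate 2 or 6 of Early Vehicle (0.0510 and 0.0511), as all groups share 1 estimate of the spread. Without both Late Vehicle mice of negative GC slope, replicates 2 and 6, 5 of the 9 and 37.1% of all genes passed, and the log2 fold change of Lrp1 was -1.12. That setting was chosen after the data were seen, and these mice are also the 2 Late Vehicle mice with the lowest Lrp1. With the GC and length correction, or with the GC slope as a covariate, 0 of the 9 and 0 of all genes passed in limma, with 2597 and 741 genes at a nominal p under 0.05. The correction left Lrp1b at 0.04, Lrp6 at -0.10 and Lrp8 at -0.05. Limma voom on reads, without a correction, had 3 of the 9 and 876 of all genes.

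**Figure D3:**
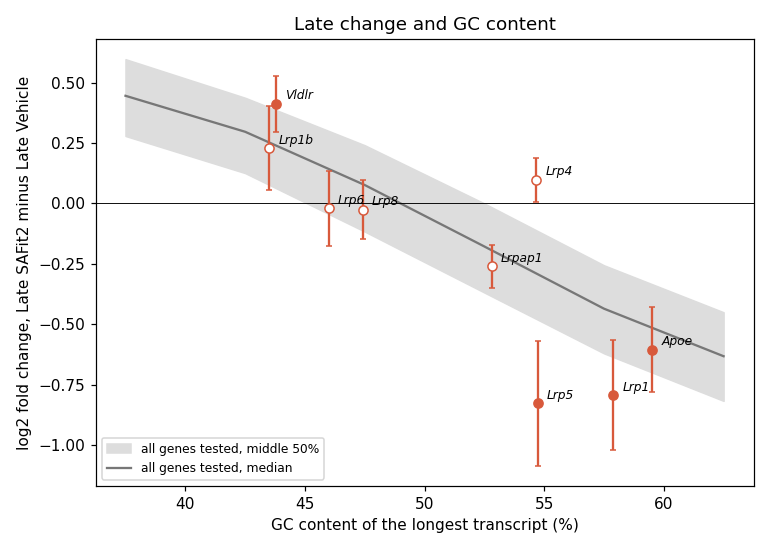
Late log2 fold change (SAFit2 minus Vehicle) against GC content (%) of the longest transcript, with the median and middle 50% of all genes tested (grey) and the 9 genes with their SE (red, filled where the gene passed). Lrp1, Lrp5 and Apoe lie low at high GC content and Vldlr lies high at low GC content, the direction in which the median of all genes runs.

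Expression of several of the 9 genes followed the GC slope across the 22 mice. This relation was examined after the data were seen, in 9 correlations, and the slope was computed from all genes of the same libraries, so that genes rich or poor in GC tend to follow it by construction. Of all genes tested, 0.561% had an r at least as far from 0 as that of Lrp1, 12.6% as that of Apoe, 18.1% as that of Lrpap1, 18.7% as that of Lrp5 and 24.0% as that of Vldlr. For Lrp1, Pearson's r was 0.95 (permutation p = 1e-05, the smallest that 100000 permutations can give, and 9e-05 after Benjamini-Hochberg adjustment over the 9). Spearman's rho was 0.95 (permutation p = 1e-05, adjusted 9e-05). Without the 2 mice farthest from the median slope, replicate 3 of Late Vehicle and replicate 4 of Late SAFit2, r was 0.94, and within the early and the late mice (n = 11 each) it was 0.87 and 0.98.

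Apoe gave r = 0.81 (permutation p = 2e-05, adjusted 9e-05) and rho = 0.79 (permutation p = 2e-05, adjusted 9e-05), with r = 0.75 without the same 2 mice, 0.87 in early and 0.98 in late mice. Lrpap1 gave r = 0.76 (permutation p = 7e-05, adjusted 0.00016) and rho = 0.75 (permutation p = 0.0001, adjusted 0.0003), with 0.70 without those mice, 0.61 in early and 0.93 in late mice. Lrp5 gave r = 0.75 (permutation p = 6e-05, adjusted 0.00016) and rho = 0.74 (permutation p = 0.00021, adjusted 0.00047), with 0.79 without those mice, 0.94 in early and 0.73 in late mice. Vldlr ran the other way, with r = -0.70 (permutation p = 0.00029, adjusted 0.00052) and rho = -0.69 (permutation p = 0.00053, adjusted 0.00095), -0.62 without those mice, -0.39 in early and -0.90 in late mice. The 4 other genes did not pass. For Lrp1b r was -0.31 (permutation p = 0.16, adjusted 0.23) and rho -0.24 (permutation p = 0.27, adjusted 0.41), with -0.05 without those mice, 0.16 in early (p = 0.63) and -0.72 in late mice (permutation p = 0.00086). For Lrp4 r was -0.22 (permutation p = 0.32, adjusted 0.41) and rho -0.19 (permutation p = 0.40, adjusted 0.51), with -0.20, -0.34 and -0.13 in turn. Lrp8 had r = 0.12 (permutation p = 0.58, adjusted 0.66) and rho = 0.16 (permutation p = 0.46, adjusted 0.52), with 0.18, 0.15 and -0.10, and Lrp6 r = -0.01 (permutation p = 0.96, adjusted 0.96) and rho = -0.09 (permutation p = 0.71, adjusted 0.71), with -0.15, 0.09 and -0.13.

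**Figure D4:**
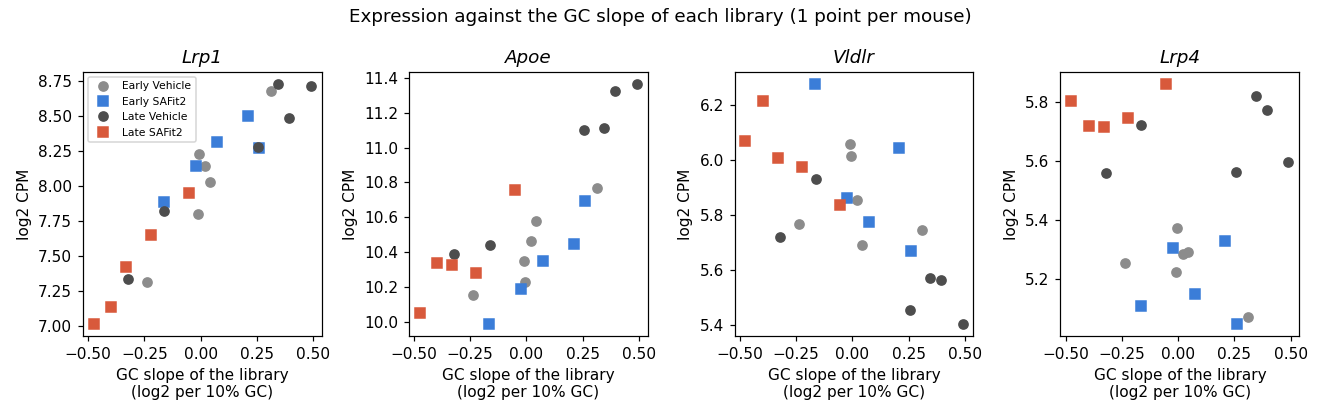
Expression (log2 CPM) of Lrp1, Apoe, Vldlr and Lrp4 against the GC slope of each library (log2 per 10% GC), with 1 point per mouse coloured by group. Lrp1 and Apoe run up with the slope and Vldlr down, while Lrp4 falls into an early and a late level.

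Promoter sequences are shown for those genes that passed in the late comparison and had an entry, as the 250 bases before the annotated start in RefSeq (build GRCm38.p6). Of the 9 genes, 5 had an entry (Lrp1, Lrp8, Vldlr, Lrpap1 and Apoe), and Lrp1b, Lrp4, Lrp5 and Lrp6 had none. Lrp1 lies at chr10:127621149-127621398 on the minus strand, Vldlr at chr19:27216234-27216483 on the plus strand and Apoe at chr7:19699189-19699438 on the minus strand. Capitals mark the GC box GGGCGG on either strand.
Lrp1: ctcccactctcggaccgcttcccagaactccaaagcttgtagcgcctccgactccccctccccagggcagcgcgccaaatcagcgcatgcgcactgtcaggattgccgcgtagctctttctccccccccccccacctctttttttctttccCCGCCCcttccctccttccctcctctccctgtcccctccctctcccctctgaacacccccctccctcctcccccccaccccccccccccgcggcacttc
Vldlr: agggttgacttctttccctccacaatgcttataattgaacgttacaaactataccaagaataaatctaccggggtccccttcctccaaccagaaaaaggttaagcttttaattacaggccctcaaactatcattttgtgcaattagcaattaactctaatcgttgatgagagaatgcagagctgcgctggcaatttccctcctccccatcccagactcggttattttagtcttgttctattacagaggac
Apoe: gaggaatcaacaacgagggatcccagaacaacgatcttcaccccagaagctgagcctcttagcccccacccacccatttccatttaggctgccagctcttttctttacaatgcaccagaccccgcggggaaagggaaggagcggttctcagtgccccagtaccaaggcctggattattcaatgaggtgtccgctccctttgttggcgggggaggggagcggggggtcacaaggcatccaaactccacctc

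The GC box was found 1 time before Lrp1 and 5 times before Lrpap1, was absent from the windows of Lrp8, Vldlr and Apoe, and is held by 32.7% of the 32851 promoters of the same length. None of the 5 windows held the E-box CACGTG (6.02% of all promoters), the sterol regulatory element (ATCAC followed at once by CCCAC, 0.0731%), the glucocorticoid response element (AGAACA and, after any 3 bases, TGTTCT, 0.00913%) or the liver X receptor element (AGGTCA and, after any 4 bases, AGGTCA again, 0.0152%), each searched on both strands. Lrp8 and Apoe had 3 entries each and Vldlr had 2, of which the entry nearest the annotated start of the gene was taken. The other entries held none of these motifs, except for 1 GC box in that of Vldlr, 536 bases away. The motifs were chosen with the values known, and a match is only a match of letters. GC content of the window was 67.2% for Lrp1, 57.2% for Apoe and 41.6% for Vldlr, beside a median of 52.4% over all promoters.

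In the early comparison (Early SAFit2 minus Early Vehicle), none of the 9 genes passed in limma, with 0 of 9 at a nominal p under 0.05 and 0 by limma voom. Of all genes 0% passed, and 2.48% had a nominal p under 0.05. Lrp1 was at 7.89, 8.27, 8.50, 8.31 and 8.14 log2 CPM in Early SAFit2 mice and at 7.31 to 8.68 (median 8.09) in Early Vehicle mice. The SAFit2 mice lay within the Vehicle range, and the log2 fold change was 0.19 ± 0.23 (exact permutation p = 0.439). Apoe was at 9.99, 10.70, 10.45, 10.35 and 10.19 log2 CPM in Early SAFit2 and at 10.15 to 10.77 (median 10.41) in Early Vehicle mice. Replicate 1 of SAFit2 was below every Vehicle mouse and the other 4 were within their range, with a log2 fold change of -0.09 ± 0.18 (exact permutation p = 0.548).

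Lrp5 was at 2.63, 3.57, 3.68, 2.98 and 3.16 log2 CPM in Early SAFit2 and at 2.19 to 3.62 (median 3.00) in Early Vehicle mice, with 1 SAFit2 mouse above them all (log2 fold change 0.24 ± 0.26, exact permutation p = 0.409). Vldlr was at 6.28, 5.67, 6.05, 5.77 and 5.86 log2 CPM in Early SAFit2 and at 5.69 to 6.06 (median 5.81) in Early Vehicle mice. SAFit2 mice lay above, within and below the Vehicle range, and the log2 fold change was 0.07 ± 0.12 (exact permutation p = 0.567). The log2 fold changes of all 9 genes were between -0.10 (Lrp8) and 0.24 (Lrp5), with a median of -0.05 beside 0.01 for all genes.

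The late effect minus the early effect addresses whether the timing of SAFit2 mattered, and a shift in level from 1 batch to the other does not enter it. A difference between SAFit2 and Vehicle libraries within 1 batch does enter it. GC slope averaged 0.07 in Early SAFit2 and 0.02 in Early Vehicle mice, beside -0.30 and 0.17 in the late groups. For the late effect minus the early effect, none of the 9 genes passed in limma, 4 had a nominal p under 0.05, and 0 passed by limma voom. Of all genes 0% passed and 24.9% had a nominal p under 0.05. For Lrp1 the difference was -0.99 ± 0.32 log2 units (limma with Benjamini-Hochberg, adjusted p = 0.120; permutation within timing over 213444 splits, p = 0.0205). For Lrp5 it was -1.07 ± 0.36 (limma with Benjamini-Hochberg, adjusted p = 0.120; permutation p = 0.0154). Vldlr (0.34 ± 0.16, permutation p = 0.0868) and Apoe (-0.52 ± 0.25, permutation p = 0.107) had adjusted p of 0.197 and 0.200 by limma with Benjamini-Hochberg. Over other settings, single libraries aside, the difference was -1.31 to -0.077 for Lrp1 and -1.30 to -0.40 for Lrp5. For Vldlr it was 0.083 to 0.45 and for Apoe -0.79 to 0.16. Without replicate 6 of Late Vehicle 2 of the 9 and 15.0% of all genes passed, and without replicates 2 and 6 of Late Vehicle, a setting chosen after the data were seen, 4 of the 9 and 26.0% of all genes.

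As a mean over both timings, the effect of SAFit2 passed for none of the 9 genes in limma, with 3 at a nominal p under 0.05 and 0 by limma voom. Of all genes 0% passed and 13.2% had a nominal p under 0.05. The 3 were Vldlr (log2 fold change 0.24 ± 0.08, permutation p = 0.0126), Apoe (-0.35 ± 0.12, permutation p = 0.0262) and Lrpap1 (-0.16 ± 0.06, permutation p = 0.0154). Their adjusted p were 0.325, 0.325 and 0.345 (limma with Benjamini-Hochberg), and Lrp1 was at -0.30 ± 0.16 with an adjusted p of 0.396. With the 2 Late Vehicle mice left out, as above, 3 of the 9 and 10.8% of all genes passed.

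**Figure D5:**
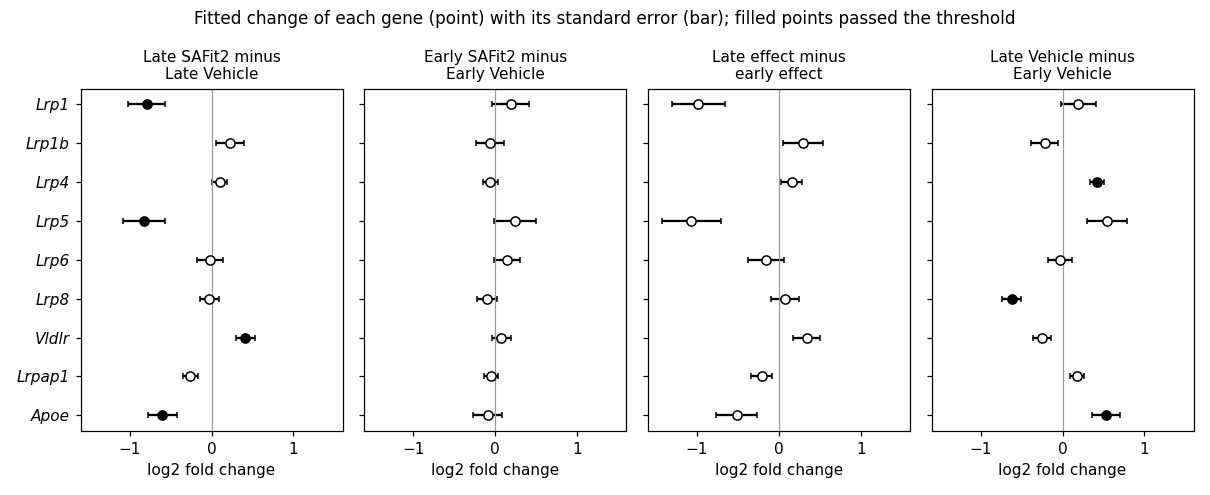
Fitted change of the 9 genes (log2 fold change) in the late comparison, the early comparison, the late effect minus the early effect, and Late Vehicle minus Early Vehicle, with points for estimates, bars for SE and filled points for genes that passed. Filled points are Lrp1, Lrp5, Vldlr and Apoe in the late comparison and Lrp4, Lrp8 and Apoe between Vehicle groups.

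Between the Vehicle groups (Late Vehicle minus Early Vehicle), which differ in labelled batch as well as in the days of gel injection, Lrp4, Lrp8 and Apoe passed. These 3 of 9 genes stand beside 9.11% of all genes tested (limma, Benjamini-Hochberg). In the higher direction it was 2 of the 9, beside 3.29% of all genes, and in the lower direction 1 of the 9, beside 5.82%. For 2 of the 9 the groups did not overlap, beside 4.92% of all genes. The median log2 fold change was 0.18 for the 9 and 0.01 for all genes, which was -0.10 with library sizes that left out Bc1 and mitochondrial genes. All genes that passed were split 552 higher and 975 lower, 1198 and 816 with median centring, and 144 and 1615 with those library sizes. This comparison and the late comparison share the Late Vehicle mice, and it shares the Early Vehicle mice with the early comparison.

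Lrp4 was at 5.07 to 5.37 log2 CPM (median 5.27) in Early Vehicle and at 5.56 to 5.82 (median 5.66) in Late Vehicle mice. In Early SAFit2 mice it was at 5.11, 5.05, 5.33, 5.15 and 5.30, and all 11 late mice were above all 11 early mice. After the GC and length correction the Vehicle groups overlapped, at 4.67 to 5.53 and 5.34 to 5.91. Without the correction Lrp4 rose by 0.42 ± 0.09 on the log2 scale (limma with Benjamini-Hochberg, adjusted p = 0.00225), and passed under each scaling, with 0.31 as the lowest value over all settings other than single libraries left out. Lrp8 was at 5.39 to 5.58 log2 CPM (median 5.51) in Early Vehicle and at 4.73 to 5.04 (median 4.88) in Late Vehicle mice. In Early SAFit2 mice it was at 5.12, 5.35, 5.34, 5.50 and 5.64, above all Late Vehicle mice, while Late SAFit2 replicate 5 (5.30) reached into the early range. Lrp8 fell by 0.62 ± 0.12 on the log2 scale (limma with Benjamini-Hochberg, adjusted p = 0.000957), and passed under each setting and with each library left out, as Lrp4 did.

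Apoe ranged from 10.15 to 10.77 log2 CPM in Early Vehicle and from 10.39 to 11.37 in Late Vehicle mice, of which 4 were above every Early Vehicle mouse. It rose by 0.53 ± 0.17 on the log2 scale (limma with Benjamini-Hochberg, adjusted p = 0.0466). With library sizes that left out Bc1 and mitochondrial genes it was 0.42 and with quantile normalization 0.25, neither past the threshold (limma with Benjamini-Hochberg, adjusted p = 0.116 and 0.404, and 0.0701 with no variance trend; range over other settings, single libraries aside, 3.89e-05 to 0.404). It also missed the threshold with replicates 2, 3, 4, 5 or 6 of Early Vehicle, 1, 3, 4 or 5 of Late Vehicle, 3, 4 or 5 of Early SAFit2, or 2 or 3 of Late SAFit2 left out singly, at adjusted p of up to 0.119. Astrocyte markers summed to 5904 ± 509 CPM in Early Vehicle and 7326 ± 208 CPM in Late Vehicle mice, with 3 of 8 higher by the same test. The part of astrocytes or other cells in the levels of Lrp4, Lrp8 and Apoe was not tested.

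The partners of these receptors were taken as 8 lists, of which 120 of 127 genes were tested, and 16 passed in the late comparison, 6 higher and 10 lower. That is 13.3%, beside 12.1% of all genes. None of the 120 passed in limma in the early comparison, the late effect minus the early effect or the mean of both effects. Between Vehicle groups 14 passed (11.7%, beside 9.11% of all genes), 12 higher and 2 lower, beside 3.29% and 5.82% of all genes. The same GC and length correction left 0 of all genes past the threshold in the late comparison, these 16 included.

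Among 8 other members of the receptor family, 0 were higher and 1 lower in the late comparison, beside 5.33% and 6.72% of all genes. Their median log2 fold change was -0.31, beside -0.05 for all genes. The lower gene was Lrp3, a receptor whose ligands are little known, at 5.07 ± 0.27 log2 CPM in Late SAFit2 (SD, n = 5) and 5.74 ± 0.49 in Late Vehicle mice (n = 6), a log2 fold change of -0.67 ± 0.21. After the GC and length correction it was 0.06. Of 21 ligands of Lrp1, 1 was higher and 1 lower (median -0.07), again beside 5.33% and 6.72% of all genes. Lpl, which releases fatty acids from lipoproteins and bridges them to receptors, was at 3.41 ± 0.75 and 2.17 ± 0.67 log2 CPM and rose by 1.24 ± 0.32, the widest change of the named genes in the late comparison. Mdk, a heparin-binding growth factor, fell by 0.53 ± 0.18 on the log2 scale (limma with Benjamini-Hochberg, adjusted p = 0.0494). Over other settings, single libraries aside, Lpl was at 0.47 to 1.53 and Mdk at -0.71 to -0.16.

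Of 15 genes of apolipoproteins and lipid efflux, 1 was higher and 1 lower (median -0.17), beside 5.33% and 6.72% of all genes. Lipa, the lysosomal enzyme that frees cholesterol from its esters, rose by 0.36 ± 0.10, and Nr1h2, a sterol-sensing liver X receptor that drives Apoe transcription, fell by 0.71 ± 0.23 on the log2 scale. Over other settings, single libraries aside, Lipa was at 0.080 to 0.44 and Nr1h2 at -1.04 to 0.060. Of 12 genes of receptor folding, turnover and shedding, 0 passed in limma, with 3 at a nominal p under 0.05 (median -0.07), beside 34.5% of all genes at such a p. The lowest p was that of Ncstn, a subunit of the gamma-secretase that cleaves Lrp1 in the membrane, with a log2 fold change of -0.28 ± 0.12 (limma with Benjamini-Hochberg, adjusted p = 0.0991). Of 14 cytoplasmic adaptors, 0 were higher and 3 lower (median -0.17), beside 5.33% and 6.72% of all genes. Apbb1, which ties the tail of Lrp1 to that of App, fell by 0.66 ± 0.17, the synaptic scaffold Dlg4 by 0.52 ± 0.15 and the JNK scaffold Mapk8ip1 by 0.51 ± 0.16. Over other settings, single libraries aside, Apbb1 was at -0.92 to -0.065 and Dlg4 at -0.72 to -0.020. For Mapk8ip1 the log2 fold change was 0.07 after the GC and length correction.

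Of 11 genes of the reelin pathway downstream of Vldlr and Lrp8, 1 was higher and 2 lower (median -0.06), beside 5.33% and 6.72% of all genes. The adaptor Crk rose by 0.36 ± 0.11, while the kinase Src fell by 0.72 ± 0.19 and the exchange factor Rapgef1 by 0.52 ± 0.16 on the log2 scale. Over other settings, single libraries aside, Crk was at 0.061 to 0.50, Src at -0.99 to -0.12 and Rapgef1 at -0.76 to -0.037. Of 4 genes of the agrin pathway, 0 were higher and 1 lower (median -0.77), beside the same shares of all genes. Dok7, which activates the receptor kinase partnered by Lrp4, fell by 0.85 ± 0.27 (range over other settings, single libraries aside, -1.16 to -0.13). Of 35 genes around the Wnt co-receptors Lrp5 and Lrp6, 3 were higher and 1 lower (median -0.07), again beside 5.33% and 6.72% of all genes. The receptor Fzd3 rose by 0.45 ± 0.15, the kinase Gsk3b by 0.35 ± 0.11 and the R-spondin receptor Lgr4 by 0.40 ± 0.13, and Dvl1, which relays the signal from Frizzled receptors, fell by 0.65 ± 0.19. In this order, adjusted p was 0.0494, 0.0439, 0.0491 and 0.0393 (limma with Benjamini-Hochberg). With single libraries left out, the calls were lost in 16, 11, 15 and 7 of 22 fits. Of the other partner genes past the threshold, Mdk lost its call in 14 of these fits and Nr1h2 in 12. Lrp3, Mapk8ip1 and Dok7 lost it in 11 each, Rapgef1 in 9 and Lipa in 8. For Lpl, Apbb1, Dlg4, Crk and Src it was 7 each. Over other settings, Fzd3 was at 0.031 to 0.63, Gsk3b at 0.11 to 0.46, Lgr4 at 0.16 to 0.48 and Dvl1 at -0.91 to -0.021. GC content was 56.2 to 62.9% in 9 of the 10 lower genes and 46.8% in Dlg4, and 40.3 to 46.3% in the 6 higher genes.

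The genes whose level was most like that of Lrp1 over the 22 mice were Gba2 (Pearson's r = 0.98), Sptbn4 (0.98), Hectd4 (0.98), Ltbp4 (0.98) and Cul9 (0.97), as a description with no test. Their transcripts had 55.1 to 63.7% GC. After removal of the GC and length trend they were Hectd4 (r = 0.94), Mroh1 (0.93), Idh3b (0.92), Ddx24 (0.91) and Dmtn (0.91), so that 1 of the 5 was shared. Among the 9 genes themselves, Lrp5 (r = 0.73), Lrpap1 (0.68) and Apoe (0.67) were most like Lrp1 in level, at places 1927, 2410 and 2470 among all genes, and Vldlr was least (-0.56). After removal of the trend r with Lrp1 was 0.62 for Apoe, 0.62 for Lrp5, 0.42 for Lrpap1 and -0.18 for Vldlr, and Lrp8 was least like it (-0.51).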

How the data were processed

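Per the submitters' notes, reads were processed with Trimmomatic, HISAT2 and edgeR on mm10 (versions not given in the sources used here). The deposited values are log2 CPM of 17306 genes in 22 libraries, which the authors made with a small prior count (floor of -3.154) and scaled library sizes. Whole reads were worked back for 100% of values (checked up to 5000 reads, tolerance of 0.02 reads), for depths of 11352989 to 24433349 reads per library. Counting error is larger for genes with few reads, and with 5 or 6 mice a group mean has limited precision.

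The test was limma 3.58.1 (R 4.3.3) on 16765 genes that reached a log2 CPM of -1 in 5 libraries, with 1 mean per group, a variance trend and Benjamini-Hochberg adjustment. A gene passed with a 1.2-fold change at an adjusted p under 0.05. The 9 genes, Lrp2 and the named genes of the partner lists were in addition tested by two-sided exact permutation of mice. This was done in the comparisons involving SAFit2, within timing where both timings entered. The fit was tested on simulated data. Transcript annotation was GENCODE M21 (GRCm38), with 16699 genes matched. As an alternative, the trend of each library with GC content and length was taken out by loess (span 0.5) for 16213 genes, which also removes any part of an effect of SAFit2 that follows GC content. The GC slope as a covariate likewise takes out any part of such an effect that runs with the slope. Summaries and plots used Python 3.11.15, numpy 2.4.6, pandas 2.3.3, scipy 1.17.1 and matplotlib 3.10.9.

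Named are the 9 genes, from each list those that passed in a comparison involving SAFit2 or, where none did, that of lowest p in the late comparison, and the 5 genes most like Lrp1. The members and lists were chosen with earlier results of these data known. Alternatives were other filters, pseudocounts of 0.5 and 2 CPM, variance models, library weights, scalings, the mice of 1 pair of groups alone, a replicate block, the GC and length correction, the GC slope as a covariate, limma voom on reads, other thresholds, another transcript length, other measures of likeness and each library left out. Chosen after the data were seen were the fit of genes with a GC value without correction, the fit without replicates 2 and 6 of Late Vehicle, the correlations with GC slope, the medians by GC content and the promoter motifs. The result for microglial markers is not reported here.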

Additional observations from a re-analysis of the deposited data

Results flagged for a closer look

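In 1 of the 36 sets of values made by the 9 genes and 4 groups, a mouse stood apart from the rest of its group: Lrp1b was at 5.13 log2 CPM in Late SAFit2 replicate 4, while the other 4 mice were at 4.35 to 4.49. Chance alone gives such a gap in about 1 in 20 groups.

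For 4 genes the effect of SAFit2 differed between late and early mice at a nominal p under 0.05. The late effect minus the early effect was -0.99 for Lrp1, -1.07 for Lrp5, 0.34 for Vldlr and -0.52 for Apoe, in log2 units. None passed after Benjamini-Hochberg adjustment over all genes in limma, and 24.9% of all genes had such a nominal p. Over other settings, single libraries aside, these differences ran to -0.077 for Lrp1, -0.40 for Lrp5, 0.083 for Vldlr and 0.16 for Apoe at their weakest or with the sign turned.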

How the results depend on the processing

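Of the 9 genes, 4 passed in the late comparison. The count was 0 with no variance trend, with the late mice alone, with the GC and length correction and with the GC slope as a covariate (beside 62, 0, 0 and 0 of all genes), and 0 to 5 with single libraries left out (1 to 4971 of all genes). With library quality weights 38.1% of all genes passed in the late comparison, beside 12.1% in the main fit. For the late minus the early effect, 0 became 4 with library quality weights (beside 30.3% of all genes), 4 at a nominal p (24.9%) and 0 to 2 with single libraries left out. For the mean effect, 0 became 3 with weights (17.0% of all genes) and 3 at a nominal p (13.2%), and between Vehicle groups 3 became 6 with weights (30.2%), 6 at a nominal p (24.3%), 5 with the GC and length correction (18.3%) and 2 to 3 with single libraries left out. The early count was 0 under every setting run. Without replicates 2 and 6 of Late Vehicle, chosen after the data were seen, the counts were 5 (late), 4 (late minus early), 3 (mean) and 5 (Vehicle groups), beside 37.1%, 26.0%, 10.8% and 19.7% of all genes. Restricting the fit to genes with a GC value, also chosen then, changed no count. The cause of these changes was not tested.

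The late change of Lrp1 was -0.79 with no variance trend and -0.79 with the late mice alone (not past the threshold in either), -0.30 with the GC and length correction, 0.024 with the GC slope, and -0.97 to -0.69 with single libraries left out.

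Replicate numbers gave no clear sign of pairing: deviations of same-numbered mice correlated at -0.24 to 0.32, with 2 of 10 above 0.1. Whether the numbers pair mice is not known. With a replicate block the late change of Lrp1 was -0.97 and 1 of the 9 genes passed for the late minus the early effect, and all genes past the threshold were 4219 in place of 2021 (late) and 1785 in place of 0 (late minus early). The block also takes the unpaired replicates 6 of both Vehicle groups out of the estimates, and leaving out replicate 6 of Late Vehicle alone gave 4971 and 2513. With the block and the GC and length correction together, 0 of the 9 and 12 of all genes passed in the late comparison, Lrp1 was at -0.36, Lrp3 at 0.085 and Mapk8ip1 at 0.0687, the mean effect was -0.017 for Lrp1b and -0.0023 for Lrp6, the early effect -0.00061 for Vldlr, and the late minus the early effect 0.0042 for Lrpap1.

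Other signs turned, for genes near 0 or under a correction. With the GC slope these were the mean effect of Lrp1 (0.062), its Vehicle difference (-0.065), the late effects of Apoe (0.0015), Nr1h2 (0.060) and Mapk8ip1 (0.059), and the late minus the early effects of Apoe (0.16) and Lrpap1 (0.013). With the GC and length correction they were the mean effects of Lrp1b (-0.022) and Lrp6 (-0.0021), the Vehicle differences of Lrp1b (0.037) and Lrp6 (0.099), the late effects of Lrp3 (0.061) and Mapk8ip1 (0.0689), and the late minus the early effect of Lrpap1 (0.032). With library weights they were the mean effects of Lrp4 (-0.0092) and Lrp6 (-0.0052), the late (0.045), early (-0.055) and late minus early effects (0.10) of Lrp6 and the late minus early effect of Lrp8 (-0.14). With median centring they were the late effects of Lrp6 (0.0344) and Lrp8 (0.028) and the Vehicle difference of Lrp6 (0.0340), with quantile normalization the Vehicle difference of Lrp1 (-0.0013), and without replicates 2 and 6 of Late Vehicle the late effect of Lrp6 (0.043).

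With single libraries left out, signs turned for effects that had not passed. The early effect was -0.16 to 0.075 for Lrp1b and -0.017 to 0.13 for Vldlr, and the late effect -0.12 to 0.077 for Lrp6 and -0.14 to 0.050 for Lrp8. The late minus the early effect was -0.037 to 0.15 for Lrp8, the mean effect -0.00033 to 0.035 for Lrp4 and -0.0032 to 0.11 for Lrp6, and the Vehicle difference of Lrp6 -0.16 to 0.035. Levels per length rose for all 9 genes with the mean transcript length in place of the longest, and places 5 to 7 of their order changed. Of the 5 genes most like Lrp1, 2 were shared with Spearman's rho and 1 with deviations from group means (4 and 3 after removal of the trend). Few reads limit Lrp5 most, and a small change in it could be missed.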

Other observations

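Lrp2, the large endocytic receptor of ependymal and other epithelial cells, was singled out after its values were seen. It was at -1.41, -0.45, -2.62, -1.23 and -2.16 log2 CPM in Early SAFit2 mice and at -1.95 to 2.44 (median 0.48) in Early Vehicle mice, on 1 to 71 reads per library. The groups overlapped through replicate 1 of Early Vehicle, and the log2 fold change of -2.06 ± 0.74 did not pass (limma with Benjamini-Hochberg, adjusted p = 1.00; exact permutation p = 0.0216). The late log2 fold change was -0.90 (exact permutation p = 0.329) and the late minus the early effect 1.16 (permutation p = 0.386), so the lower level is not shown to belong to early mice. Ependymal markers (5 of 5 in the table, Foxj1 the most abundant, Ccdc153 and Tmem212 at 0 reads in at least 1 library) summed to 19.1 ± 3.25 CPM in Early SAFit2 and 28.8 ± 8.98 CPM in Early Vehicle mice, and to 24.5 ± 10.1 and 42.2 ± 12.3 CPM in the late groups. Foxj1 made up most of the sum, while the median early log2 fold change of the 5 was -1.67 (4 lower, none past the threshold in limma) and the late -0.77 (5 lower, 1 past it), and their part in the level of Lrp2 was not tested.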
